A study of Drosophila melanogaster with 2 samples.

Results

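The 38 genes described here encode the recognition and signalling parts of the Toll and Imd pathways of *Drosophila melanogaster*. They were chosen by name, from the receptors to the transcription factors and inhibitors, and the antimicrobial peptides at the end of the pathways were left out. All 38 are among the 17559 genes of the table. RNA was measured in 1 library from a pool of 10 whole control flies (w1118) and in 1 library from a pool of 10 whole heterozygous *taf1*-mutant flies (w1118; taf1 1/+). The mutant flies came from a cross of the *taf1* 1 line to control flies, and the chromosome that carries *taf1* 1 also carries alleles of *red* and *e*. The sources used here give neither sex nor age of the flies. With 1 library per genotype there is no replicate check and no test, so each value compares these libraries and not the genotypes. In whole flies, a change in the number of cells of a type and a change in RNA per cell cannot be told apart.

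The Toll and Imd pathways are the main routes by which the fly turns on its humoral immune response. In the Toll pathway, soluble proteins in the hemolymph bind microbial cell walls and start a chain of serine proteases, which cuts the ligand Spätzle and so lets it bind the receptor Toll. In the Imd pathway, peptidoglycan of Gram-negative bacteria is bound by receptors of the peptidoglycan recognition protein (PGRP) family, some of whose other members cut peptidoglycan and dampen the response. Both pathways end at NF-κB-type transcription factors, and the fat body and hemocytes are well-known sites of their activity, with the gut as a further site for Imd.

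Whole reads were recovered from the deposited values, 16753242 for control and 32364756 for the mutant, of which mitochondrial transcripts took 2.91% and 15.2%. The libraries were scaled by TMM, a trimmed mean of the ratios over genes, which gave a size ratio of 1.61 (mutant over control). Levels are given in CPM, reads scaled to a library of 1000000 on this scale. Genes whose reads in both libraries summed to at least 20 were measured. Higher or lower in the mutant library, for a called gene, means that its ratio reached 1.5-fold and its 95% exact conditional binomial interval excluded equality. All intervals cover counting error only. *Taf1*, the gene mutated, had 1352 control reads and 1564 reads in the larger mutant library, or 71.9% of the control level (66.8 to 77.4). This did not reach the 1.5-fold limit, so *Taf1* itself was not called.

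Of the 38 genes, 30 were measured, 10 had a higher level in the library of *taf1* heterozygotes by the rule above and 0 a lower one. Over all 11606 measured genes, 12.8% were called higher and 6.16% lower, against 33.3% of the measured Toll and Imd genes higher. Every higher gene encodes a protein that acts outside the cell, namely the amidases *PGRP-SB1*, *PGRP-SC1a*, *PGRP-SC1b* and *PGRP-SC2*, the recognition proteins *PGRP-SA*, *GNBP1* and *GNBP3*, and the proteases *modSP*, *psh* and *SPE*. Of the 17 measured genes for membrane receptors and proteins inside the cell, 0 were called in either direction. The log2 ratio (mutant over control) had a median of 0.11 for the 30 genes and of 0.0064 for all measured genes. The higher genes sat in 3 of the 8 roles into which the members were grouped.

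**Figure D1:**
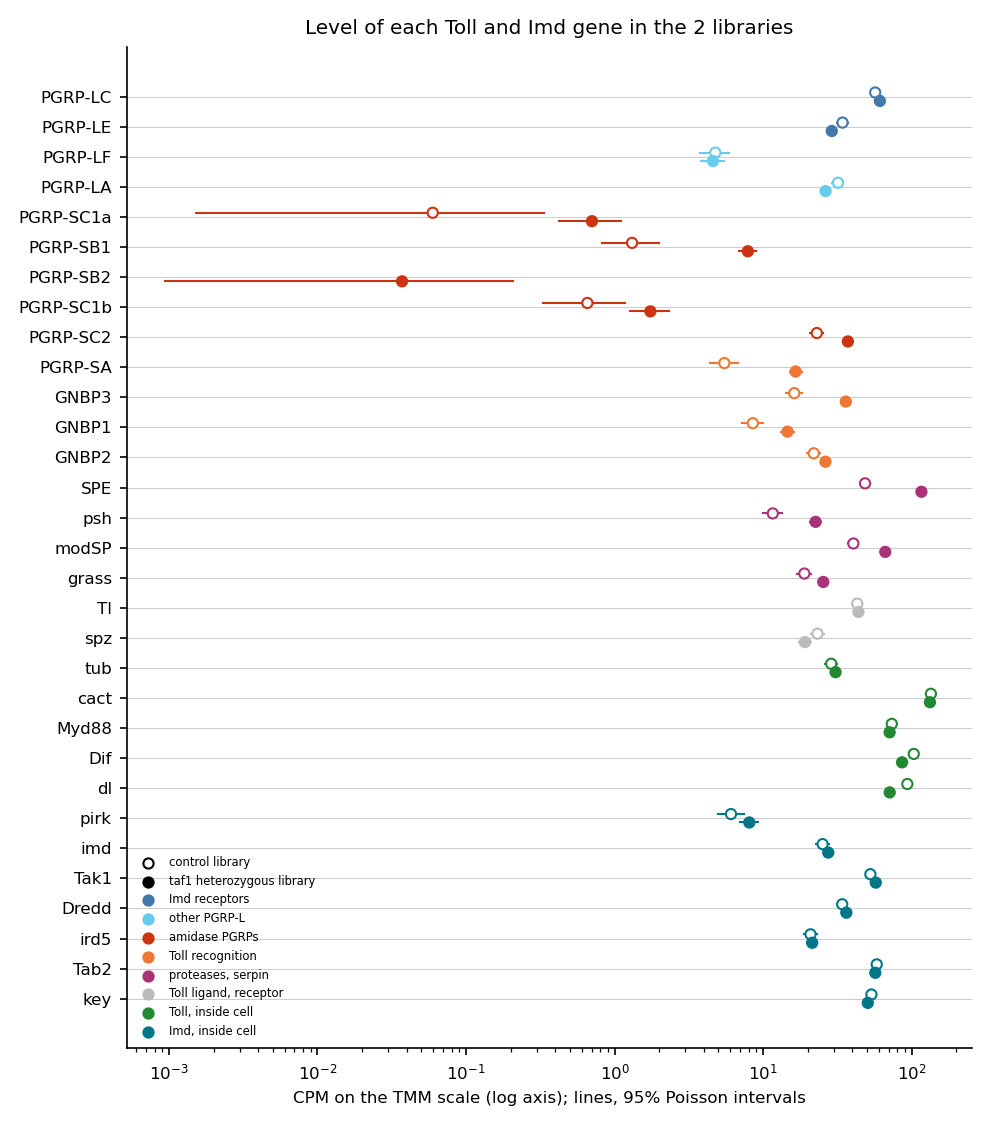
Level of each gene in the control library (open symbols) and in the *taf1*-heterozygous library (filled symbols) in CPM on the TMM scale, on a log axis, with 95% Poisson intervals and colours for the roles. The symbols of *SPE* lie at 48.6 and 117 CPM, while those of *cact* lie on top of each other at 135 and 133 CPM. A library at 0 reads has no symbol, and the 7 genes listed at 0 in both libraries are not drawn.

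Among the 6 PGRP genes grouped as amidases, which remove peptidoglycan, 4 were higher in the mutant library, 1 had a single read and 1 was listed at 0. Of all measured genes, 12.8% were higher. *PGRP-SC1a* and *PGRP-SC1b* reached the minimum of 20 reads mainly through their mutant reads. Among the amidase genes with at least 100 reads, only *PGRP-SB1* and *PGRP-SC2* remained, and both were higher. *PGRP-SB1* (FBgn0043578; 3L, 16727299 to 16727989 of BDGP6), a secreted amidase, had 22 reads in control and 213 in the mutant. This is 1.31 CPM (95% Poisson interval 0.823 to 1.99) against 7.90 CPM (6.88 to 9.04), a 6.02-fold higher level with a log2 ratio of 2.57 (1.95 to 3.29). It was one of the lowest measured members in control, and its intervals in the libraries lay far apart. Its neighbour *PGRP-SB2* (3L, 16726541 to 16727288), 10 bases away on the other strand, was listed at 0 reads in the control library and had 1 read in the mutant library. No ratio is given for *PGRP-SB2*.

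The PGRP-SC genes form a cluster on 2R between 8709733 and 8717695 and encode amidases known from the gut. *PGRP-SC2* was the most abundant of them, with 386 reads (23.0 CPM, 20.8 to 25.5) in control and 1005 reads (37.3 CPM, 35.0 to 39.7) in the mutant, a 1.62-fold level (log2 ratio 0.69, 0.52 to 0.87). *PGRP-SC1b* had 11 and 47 reads, with a log2 ratio of 1.38 (0.44 to 2.51). *PGRP-SC1a* had 1 and 19 reads, with a log2 ratio of 3.14 (0.91 to 8.94). The last pair are near-identical copies, whose reads the counting may have split between them. Summed, they had 12 reads in control and 66 in the mutant library (log2 ratio 1.74, 0.87 to 2.80). The log2 ratios of *PGRP-SC1b* and *PGRP-SC2* differed by 0.71, and the interval of this difference (-0.27 to 1.83) held 0. *PGRP-LB*, the other well-known amidase of the Imd pathway, was listed at 0 in both libraries.

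The recognition proteins of the Toll pathway were also mostly higher. *PGRP-SA* (FBgn0030310; X, 11561643 to 11562779), which binds lysine-type peptidoglycan, went from 92 reads (5.49 CPM, 4.43 to 6.73) in control to 447 reads (16.6 CPM, 15.1 to 18.2) in the mutant library, or 3.02-fold (log2 ratio 1.59, 1.27 to 1.93). *GNBP1*, its partner in this recognition, went from 143 reads (8.54 CPM) to 394 reads (14.6 CPM), or 1.71-fold (0.77, 0.50 to 1.06). The partners therefore did not stand at the same ratio, since their log2 ratios differed by 0.82 (0.38 to 1.26). *GNBP3* (FBgn0040321; 3L, 8955021 to 8956551), which binds fungal β-glucan, went from 272 reads (16.2 CPM, 14.4 to 18.3) to 973 reads (36.1 CPM, 33.9 to 38.4), or 2.22-fold (1.15, 0.96 to 1.35).

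*GNBP2*, of the same family, had 368 and 710 reads (22.0 and 26.3 CPM) with a log2 ratio of 0.26 (0.08 to 0.45), below the 1.5-fold limit. It lies 386 bases from *GNBP1* on the opposite strand of 3L, and the log2 ratio of *GNBP1* exceeded that of its neighbour by 0.51 (0.18 to 0.86). *PGRP-SD*, a further recognition protein, was listed at 0 in both libraries.

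In the protease cascade, 3 of the 4 measured genes were higher, beside 12.8% of all measured genes. *SPE* (FBgn0039102; 3R, 23686255 to 23688147) encodes the Spätzle-processing enzyme, the last protease of the chain. It rose from 815 reads (48.6 CPM, 45.4 to 52.1) in control to 3143 reads (117 CPM, 113 to 121) in the mutant library, a 2.40-fold higher level with a log2 ratio of 1.26 (1.15 to 1.37). It thereby held the largest number of reads of all 10 higher genes. *SPE* shares 8.45% of its exon bases with *CG18754*, which had 21 and 49 reads.

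*psh* (Persephone), a protease that responds to microbial proteases, went from 195 reads (11.6 CPM, 10.1 to 13.4) to 609 reads (22.6 CPM, 20.8 to 24.5), or 1.94-fold (0.96, 0.72 to 1.20). *modSP*, the first protease after recognition, went from 680 reads (40.6 CPM) to 1794 reads (66.6 CPM), or 1.64-fold (0.71, 0.59 to 0.84). *grass*, which acts between *modSP* and *SPE*, had 318 and 686 reads (19.0 and 25.4 CPM) and a log2 ratio of 0.42 (0.23 to 0.62), inside the 1.5-fold limit. The ratio of *SPE* exceeded that of *grass* by 0.84 on the log2 scale (0.61 to 1.06). The serpin gene *nec*, whose product inhibits Persephone, was listed at 0 in both libraries.

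**Figure D2:**
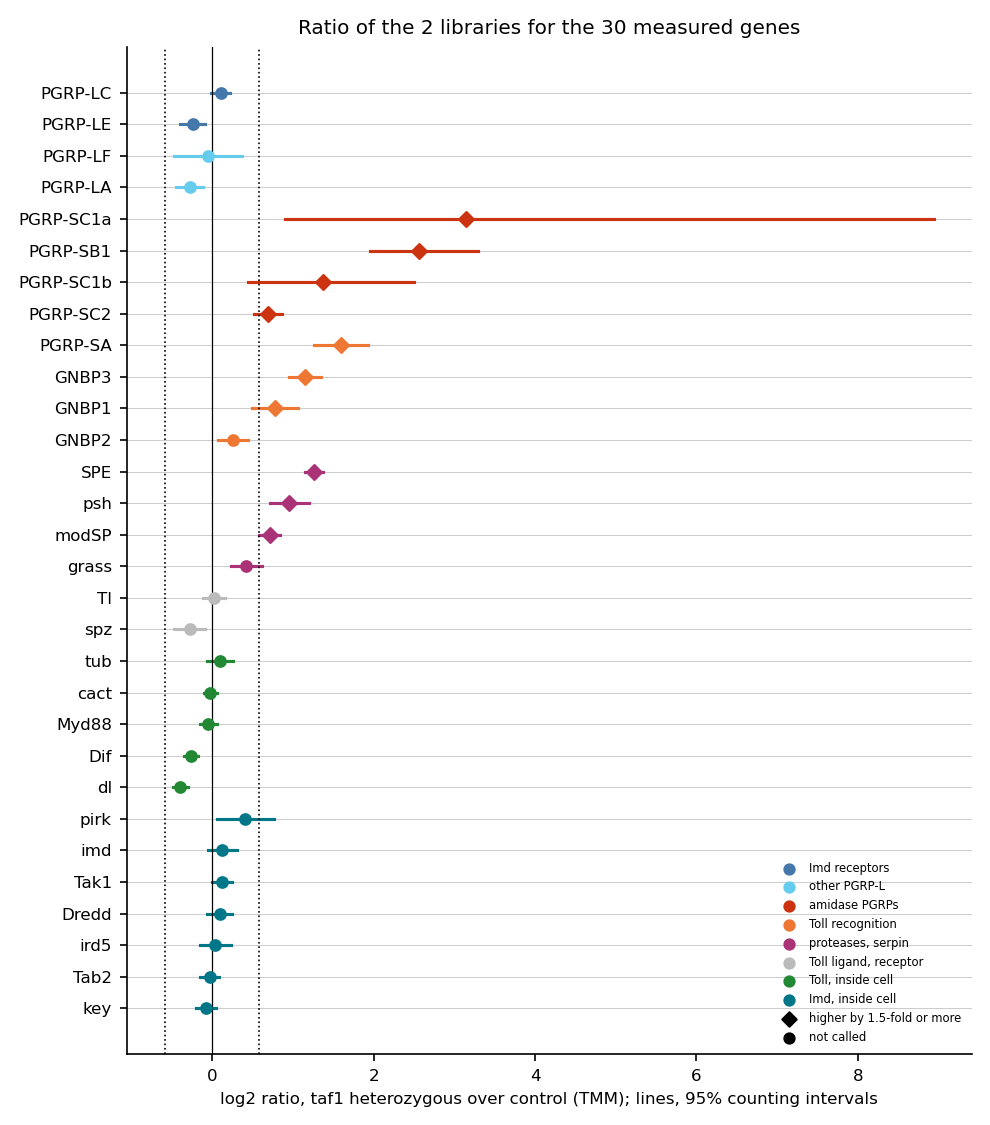
Log2 ratio of the *taf1*-heterozygous over the control library for the 30 measured genes on the TMM scale, with 95% exact conditional binomial intervals. Dotted lines mark 1.5-fold, and diamonds mark the 10 genes called higher, all of them among the amidases, the Toll recognition proteins and the proteases, from 0.69 for *PGRP-SC2* to 3.14 for *PGRP-SC1a*.

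The ligand and the receptor that follow the proteases did not show this difference. *spz*, which encodes the ligand Spätzle, had 390 reads (23.3 CPM, 21.0 to 25.7) in control and 517 reads (19.2 CPM, 17.6 to 20.9) in the mutant library, with a log2 ratio of -0.28 (-0.47 to -0.09). *Tl*, the receptor Toll, had 722 reads (43.1 CPM) and 1183 reads (43.9 CPM), with a log2 ratio of 0.03 (-0.11 to 0.16). Set against these genes within the same libraries, where the scaling cancels, *SPE* stood 1.54 higher than *spz* (1.32 to 1.76) and 1.23 higher than *Tl* (1.06 to 1.41) on the log2 scale. These differences were not adjusted for transcript length, which was 1267 nt for *SPE*, 2009.5 nt for *spz* and 5129 nt for *Tl*.

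Inside the cell, 5 of the 6 Toll genes were measured and 0 were called. *cact*, the inhibitor that holds the transcription factors in the cytoplasm, had 2263 reads (135 CPM, 129.6 to 141) in control and 3585 reads (133 CPM, 129 to 137) in the mutant library, with a log2 ratio of -0.02 (-0.10 to 0.05). The adaptor genes *Myd88* and *tub* had log2 ratios of -0.05 (-0.15 to 0.06) and 0.10 (-0.07 to 0.26). The intervals of all 3 ratios held equality and lay within 1.5-fold.

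The NF-κB factors of the Toll pathway had the lowest values of this group. *dl* (Dorsal; 2L, 17436830 to 17450364) had 1570 reads (93.7 CPM, 89.1 to 98.5) in control and 1922 reads (71.3 CPM, 68.2 to 74.6) in the mutant library, or 76.1% of the control level (log2 ratio -0.39, -0.49 to -0.30). It had the lowest log2 ratio of the 30 genes, and did not reach the limit of 1.5-fold. *Dif*, which lies 3668 bases away, had 1735 reads (104 CPM, 98.7 to 109) and 2328 reads (86.4 CPM, 82.9 to 89.9), with a log2 ratio of -0.26 (-0.35 to -0.17). The ratios of the neighbours *dl* and *Dif* differed by -0.13, with an interval (-0.27 to 0.00076) that held 0. The ratio of *cact* exceeded that of *dl* by 0.37 (0.25 to 0.50) and that of *Dif* by 0.24 (0.12 to 0.36), again free of the scaling. The kinase gene *pll* was listed at 0 in both libraries.

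The Imd receptors and their relatives at the membrane were not called either. *PGRP-LC*, the main Imd receptor at the cell surface, had 954 reads (56.9 CPM, 53.4 to 60.7) in control and 1650 reads (61.2 CPM, 58.3 to 64.2) in the mutant library, with a log2 ratio of 0.10 (-0.01 to 0.22). *PGRP-LE*, which senses peptidoglycan inside the cell, had 575 and 783 reads (34.3 and 29.0 CPM) and a log2 ratio of -0.24 (-0.40 to -0.08). *PGRP-LC* lies on 3L in a row with *PGRP-LA* and *PGRP-LF*, from 9334332 to 9351489. *PGRP-LA* had 536 and 711 reads (32.0 and 26.4 CPM), with a log2 ratio of -0.28 (-0.44 to -0.11). *PGRP-LF*, an inhibitor of *PGRP-LC*, had 80 and 124 reads (4.78 and 4.60 CPM), with a log2 ratio of -0.05 (-0.47 to 0.37). The ratio of *PGRP-LC* exceeded that of *PGRP-LA*, 473 bases away, by 0.38 (0.18 to 0.58). For *PGRP-LF*, 44.4% of exon bases are shared with *UGP* on the opposite strand, which was higher (5339 and 17565 reads), and the sources used here do not say whether the counting used strand. *PGRP-LD* was listed at 0 in both libraries, and 93.1% of its exon bases are shared with other genes.

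Of the 9 Imd genes inside the cell, 7 were measured and 0 were called. The adaptor gene *imd* had 422 reads (25.2 CPM, 22.8 to 27.7) in control and 741 reads (27.5 CPM, 25.5 to 29.5) in the mutant library, with a log2 ratio of 0.13 (-0.05 to 0.30). The caspase gene *Dredd*, the kinase gene *Tak1* and *Tab2*, which encodes the partner of Tak1, had log2 ratios of 0.09 (-0.06 to 0.24), 0.12 (0.00043 to 0.24) and -0.03 (-0.15 to 0.08). The interval of *Tak1* just excluded equality. The genes of the IκB kinase complex, *key* and *ird5* (now *IKKbeta*), had log2 ratios of -0.08 (-0.20 to 0.04) and 0.04 (-0.16 to 0.23). From *imd* to the kinase complex, the levels in the mutant library lay between 0.945 and 1.09 times those in control.

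*pirk*, which encodes a feedback inhibitor of Imd signalling and is itself a known target of the pathway, had 102 reads (6.09 CPM, 4.96 to 7.39) in control and 218 reads (8.09 CPM, 7.05 to 9.24) in the mutant library. Its log2 ratio of 0.41 (0.06 to 0.76) was the highest of the genes inside the cell and did not reach 1.5-fold. *Rel*, the NF-κB factor Relish, and *Fadd*, an adaptor, were listed at 0 in both libraries.

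In all, 7 members were listed at 0 in both libraries, *PGRP-LB*, *PGRP-LD*, *PGRP-SD*, *nec*, *pll*, *Fadd* and *Rel*, out of 4422 such genes in the table. The neuronal genes *elav* and *Syx1A*, known to be active in flies, were among these, so a 0 in this table is not read as a limit on the level of a gene, and the members are described only as listed at 0. Sharing of exon bases with other genes was as frequent among the 2285 protein-coding genes at 0 (33.0%) as among the other protein-coding genes (33.0%), and 3 of the 7 members at 0 shared exon bases. Neither the transcription factor of the Imd pathway nor the Pelle kinase of the Toll pathway can therefore be followed in these libraries.

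Per length of transcript, the order of the members changed at its top. In the control library *cact* was highest at 67.4 CPM per kb (64.6 to 70.2). It was followed by *SPE* at 38.4 (35.8 to 41.1), *Dif* at 38.1 (36.4 to 40.0) and *key* at 37.9 (35.5 to 40.4), whose intervals overlapped each other. In the mutant library *SPE* was first at 92.0 CPM per kb (88.8 to 95.3), ahead of *cact* at 66.3 (64.2 to 68.5) and *PGRP-SC2* at 50.0 (46.9 to 53.2), and these intervals did not overlap. The lowest measured levels were those of *PGRP-SC1a* and *PGRP-SC1b* in both libraries, at 0.102 and 0.577 CPM per kb in control and 1.20 and 1.53 in the mutant library.

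After the values were seen, the members were also divided into those whose products are secreted and all others. *spz* counts as secreted here. Of 17 secreted members 13 were measured, 10 were higher and the median log2 ratio was 0.96, with *grass*, *GNBP2* and *spz* as the exceptions. Of all measured genes, 12.8% were higher and 6.16% lower. Of 21 membrane and intracellular members 17 were measured, and their ratios ran from -0.39 to 0.41 with a median of -0.02. Summed, the secreted members went from 220 CPM in control to 392 CPM in the mutant library, and the others from 857 to 816 CPM. Since the division was chosen from the values, it is a description of them and carries no test.

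**Figure D3:**
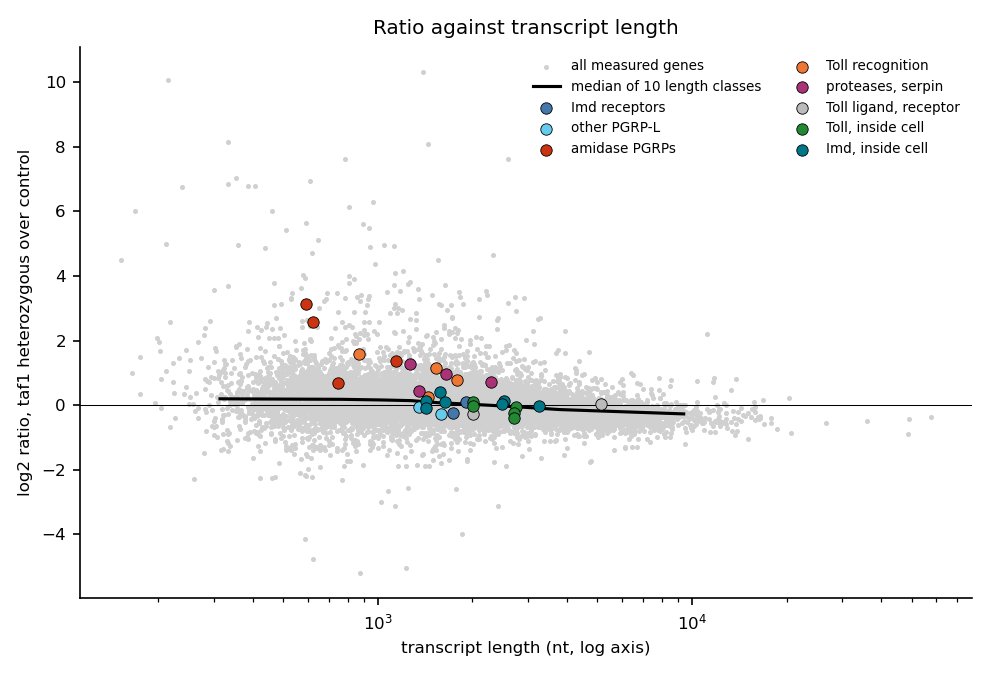
Log2 ratio of the *taf1*-heterozygous over the control library against transcript length in nucleotides (log axis) for all measured genes with a length (grey) and for the 30 measured members (coloured by role), with the median ratio of 10 length classes of equal size as a line. The line falls from 0.19 to -0.28, and the 10 higher members, of 588 to 2289 nt, lie above it.

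Transcript length moved with the ratio in these libraries. In 10 classes of genes by length, the shortest class (up to 649.5 nt) had a median log2 ratio of 0.19 with 28.0% of genes higher. The longest class (from 4426 nt) had a median of -0.28 with 1.56% higher. The secreted members had a median length of 1354 nt and the others of 2005 nt. When each ratio was set against its 200 nearest genes by length and level, 9 of the 10 higher genes were still called, at backgrounds of 10.4% higher and 6.43% lower, with *SPE* at 1.17, *GNBP3* at 0.96, *PGRP-SA* at 1.42 and *PGRP-SB1* at 2.51 on the log2 scale. *PGRP-SC2* was at 0.53 and was no longer called. In this comparison the median of the secreted members was 0.85 and that of the others 0.02. *Tl* was at 0.21 and *spz* at -0.32, while *grass* and *GNBP2* fell to 0.23 and 0.05. *Taf1*, of 6649.5 nt and thus in the longest class, had a log2 ratio of -0.48 with TMM and of -0.20 in this comparison.

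The choice of scaling moved all members together. With scaling by total reads, which shifts the size ratio by 0.26 on the log2 scale, 7 of the 10 higher genes remained higher, where 813 of all genes (7.00%) were higher and 2216 (19.1%) lower, against 1486 and 715 with TMM. *PGRP-SC2* (0.43), *GNBP1* (0.51) and *modSP* (0.45) dropped below the limit. The same 7 genes remained higher when the qPCR reference genes *RpL32*, *eEF1alpha2* and *Act5C* were set to equality, where 721 of all genes (6.21%) were higher and 2747 (23.7%) lower. *dl* was lower with total reads (-0.66), and *dl* (-0.72), *PGRP-LA* (-0.60), *spz* (-0.60) and *Dif* (-0.59) were lower with the reference genes. The median of all genes was itself -0.26 and -0.32 with these scalings. The membrane and intracellular members moved with it, to a median of -0.29 with total reads and -0.35 with the reference genes. With median-of-ratios, upper-quartile and the authors' own scaling, 10 members were higher and 0 lower again, at backgrounds of 12.7%, 12.7% and 11.6% higher and of 6.29%, 6.27% and 7.41% lower.

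Other limits for a call changed the count as follows. At 2-fold 6 members remained higher, with 5.76% of all genes higher and 1.70% lower, and *PGRP-SC2*, *GNBP1*, *modSP* and *psh* were lost. With no fold limit 14 were higher and 5 lower, with 31.9% and 30.4% of all genes. With genes from 1 read on, 10 of 31 members were higher (11.8% of all genes, 5.90% lower). With at least 100 reads 8 of 28 were higher (12.3%, 5.47% lower).

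**Figure D4:**
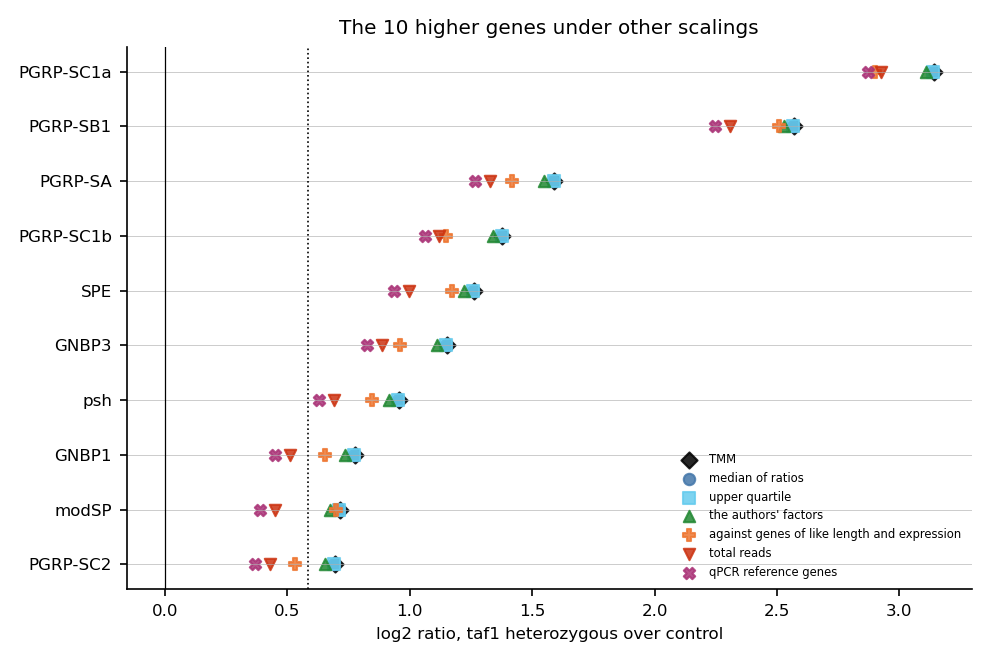
Log2 ratio of the 10 genes called higher under TMM (diamonds), under 5 other scalings and relative to genes of similar length and level. The dotted line marks 1.5-fold. All symbols lie above 0, and *PGRP-SC2*, *modSP* and *GNBP1* fall below the dotted line under total reads and under the reference genes, *PGRP-SC2* also relative to similar genes.

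The higher members lay on 4 of the 5 large chromosome arms. They comprised 2 of the 5 measured members on X, 0 of 3 on 2L, 3 of 8 on 2R, 3 of 7 on 3L and 2 of 7 on 3R, while between 11.2% and 14.2% of all measured genes on each of these arms were higher. *Taf1* lies on 3R (6646889 to 6656048). Of the 10 higher genes, 5 lie on the third chromosome, which carries the mutation, and 5 on X or 2R. Whether the genetic background of the *taf1* line had a part in these levels was not tested.

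Other genes of the pathways were taken from lists written by their function. Of 36 further Toll pathway genes 29 were measured, 4 were higher and 0 were lower (median log2 ratio 0.16). This is 13.8% of the list, close to the 12.8% of all measured genes that were higher. The 4 genes encode secreted proteins, as do genes of the list that were not called, such as *MP1* (0.41), *Spn77Ba* (0.40), *Hayan* (0.16) and *spz5* (-0.10). *GNBP-like3*, a short relative of the GNBP genes, went from 114 to 577 reads (log2 ratio 1.65, 1.36 to 1.96). *spirit*, a protease upstream of *SPE*, went from 110 to 310 reads (0.81, 0.49 to 1.14). The serpin gene *Spn28Dc* (225 and 615 reads, 0.76) and *Sp7*, a protease of melanization (336 and 839 reads, 0.63), completed the group. The serpin gene *Spn88Ea* was just under the limit (597 and 1440 reads, 0.58). The lowest values were those of *Ulp1*, a SUMO protease (-0.50), *tamo* (-0.39) and the Toll family receptors *Toll-6* (-0.44), *Toll-7* (-0.37) and *Tollo* (-0.34), none of them called.

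Of 28 further Imd pathway genes 27 were measured and 0 were called in either direction (median -0.05), beside 12.8% higher and 6.16% lower of all measured genes. The inhibitor of apoptosis gene *Diap2*, whose product ubiquitinates Imd, was at 0.24 (0.17 to 0.32), and *ben*, its ubiquitin-conjugating partner, at 0.37 (0.29 to 0.45). *eff*, a further ubiquitin-conjugating enzyme gene, was at -0.52 (-0.56 to -0.49). The deubiquitinase genes *Usp2*, *scny* and *CYLD* were at -0.49, -0.45 and -0.44, and *zfh1*, a transcription factor gene, was lowest at -0.53 (-0.70 to -0.36). None of these genes reached 1.5-fold.

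At the end of the pathways, 18 of 24 measured antimicrobial peptide and Bomanin genes were higher and 1 was lower, with a median log2 ratio of 1.40, against 12.8% and 6.16% of all measured genes. Among them *AttD* and *CecC* reached the minimum of 20 reads mainly through their mutant reads. With at least 100 reads, 14 of 17 were higher and 0 lower, against 12.3% and 5.47% of all such genes. The list counts the Bomanins together with the other peptides, and no median was taken for each kind apart. The highest log2 ratio of the measured genes was that of the Bomanin gene *BomBc1* (32 and 716 reads, 3.78). Among the Bomanins, *BomT3* was not called (1413 and 3008 reads, 0.40). The lower gene was *Drsl2*, a relative of *Drs* (16 and 11 reads, -1.18). *Drs*, a classical target of Toll, went from 465 to 1913 reads (1.35), and *DptB*, a target of Imd, from 9 to 63 reads (2.08, 1.11 to 3.31). Among other classical targets of Imd, *AttC* had a log2 ratio of 0.63 (67 and 167 reads) and was higher. *AttD* (3 and 60 reads, 3.48) and *CecC* (2 and 18 reads, 2.28) were also higher. *CecA1* (427 and 691 reads, 0.0083) and *Dro* (46 and 83 reads, 0.16) were not called. Neither were *AttB* (26 and 65 reads, 0.63) and *DptA* (20 and 50 reads, 0.63, -0.14 to 1.46).

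**Figure D5:**
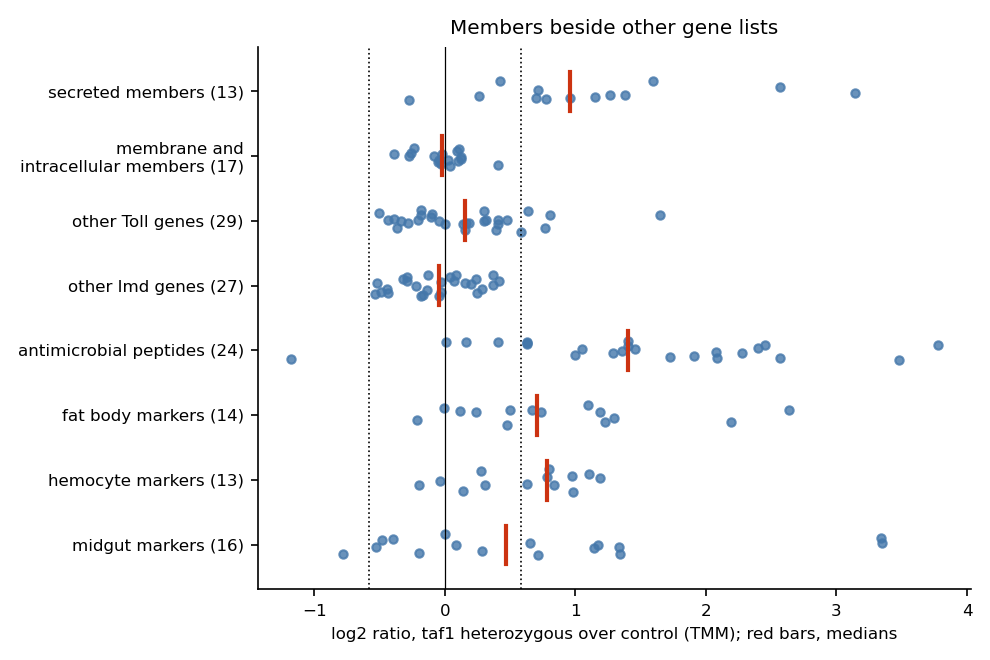
Log2 ratio of the *taf1*-heterozygous over the control library (TMM) for each measured gene (points) of the secreted members, the other members, the further Toll and Imd genes, the antimicrobial peptides and the marker lists of fat body, hemocytes and midgut, with medians as red bars, the number of measured genes in brackets and 1.5-fold as dotted lines. The antimicrobial peptides drawn here include the Bomanins. The medians of the secreted members (0.96), the antimicrobial peptides with Bomanins (1.40), the fat body markers (0.70) and the hemocyte markers (0.78) lie beyond 1.5-fold. Those of the other members (-0.02) and further Imd genes (-0.05) lie close to 0.

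Markers of 3 tissues in which these genes are known to be expressed were counted beside them, against the same 12.8% of all measured genes higher and 6.16% lower. Of 14 fat body markers 8 were higher and 0 lower, with a median log2 ratio of 0.70. Their summed level was 1544 CPM in control and 2185 CPM in the mutant library. Most of this difference lay in 1 gene, *apolpp*, at 833 and 1390 CPM. Of 13 measured hemocyte markers 8 were higher and 0 lower (median 0.78), with a summed level of 515 CPM in control and 793 CPM in the mutant library. Most of this difference lay in the collagen genes *vkg* (86.1 and 170 CPM) and *Col4a1* (158 and 275 CPM). Among the hemocyte markers *Hml* was at 0.84 and *NimC1* at 0.78, while *Pxn* was at -0.20 and *PPO2* at -0.04, and *PPO1* was listed at 0. Of 16 midgut markers 8 were higher and 1, *Jon99Ciii* (-0.78), was lower (median 0.47), and their summed level was 3363 CPM in control and 4433 CPM in the mutant library. No fat body or midgut marker was at 0. Each of these lists thus held markers below equality, among them *Lpin* (-0.21) of the fat body list. Markers of other tissues were counted by the same rule. Of the neuron markers, 0 of 9 measured were higher and 2 lower (median -0.17). Testis markers had 1 of 11 higher and 0 lower (0.03), and muscle markers 3 of 11 and 0 (0.34). Accessory gland markers had 2 of 6 higher and 2 lower (0.03), and ovary and yolk markers 1 of 6 and 2 (-0.15). The part of any of these tissues in the higher levels of the secreted members was not tested.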

How the data were processed

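Each library was made from total RNA of 1 pool of 10 whole flies with a stranded mRNA kit, per the labels. The submitters' processing notes name the build BDGP6. Aligner, counter and library factors were not given in the sources used here. In a single table, the values that the authors deposited are a signal, the reads of a gene divided by a factor for its library (0.761 for control, 1.26 for the mutant). Whole reads were recovered by taking the lowest positive value (1.31 and 0.794) as 1 read, and 100% of values came out whole within 0.001 of a read. The design foresaw raw or recovered reads. With 1 library per genotype 0 residual degrees of freedom remain, so no count test was run.

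TMM trimmed 30% of ratios and 5% of expression values. Python 3.11.15 (numpy 2.4.6, pandas 2.3.3, scipy 1.17.1) gave all values, and edgeR 4.0.16 and DESeq2 1.42.0 under R 4.3.3 were used to check size ratios. Log2 ratios carry a prior count of 0.5, while folds and calls use scaled reads alone. Differences of log2 ratios have exact conditional odds-ratio intervals, for 12 pairs chosen after the values were seen. The calculations were tested on simulated reads. Positions and lengths (median over transcripts) come from the Ensembl annotation of BDGP6. The members and lists were chosen with earlier results of these data known. Every member is named, and of the further Toll and Imd genes the called ones and some of the 5 highest and 5 lowest. Genes of the peptide and marker lists were named after their values were seen. Since reads had no molecular identifiers, they do not count independent molecules. The list genes *sphe* and *charon* were not matched and are not analysed here. In the testis, accessory gland and muscle lists, *don*, *Acp70A* and *flln* were not matched under these names either.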

Additional observations from a re-analysis of the deposited data

How the results depend on the processing

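With the TMM scaling 10 members were higher and 0 lower. No member called higher changed sign under any of the settings run. The count of higher members was 6 at a limit of 2-fold (*PGRP-SC2*, *GNBP1*, *modSP* and *psh* were lost), 7 with total reads and also 7 with the qPCR reference genes. It was 8 over genes with at least 100 reads (*PGRP-SC1a* and *PGRP-SC1b* were left out by this limit) and 9 relative to genes of similar length and level. It was 10 with median-of-ratios, upper-quartile or the authors' own scaling and with genes from 1 read on. Calls do not use the prior count, so a prior count of 2 could not change their number. With no fold limit 14 were higher and 5 lower, at a background of 31.9% and 30.4% of all genes. With the qPCR reference genes 4 members were lower. The median log2 ratio of the members was 0.11, -0.15 with total reads and -0.21 with the reference genes. Of the 56 further Toll and Imd genes measured, 4 (7.14%) were higher and 0 lower, against 12.8% and 6.16% of all genes. Scaling by total reads gave 1 higher and 11 lower, at a background of 7.00% higher and 19.1% lower. Scaling to the reference genes gave 1 and 13, at a background of 6.21% and 23.7%. A limit of 2-fold gave 1 higher and 0 lower, at a background of 5.76% and 1.70%. No fold limit gave 17 higher and 20 lower, at a background of 31.9% and 30.4%. No paired analysis was possible because each genotype has 1 library. The counting intervals leave out the spread between flies, which 1 library per genotype does not measure for a difference of any size.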
